A study of Mus musculus with 13 samples.

Results

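Hox genes encode homeodomain transcription factors that give cells along the body axis their position. In the mouse they lie in 4 clusters, and within a cluster the genes follow each other in the order of their paralogue number. Low numbers are used from the hindbrain and neck downwards and high numbers toward the tail and the ends of the limbs, and adult vessels and the fibroblasts around them keep much of the pattern of the region they came from. The members described here were all protein-coding genes with a symbol Hoxa, Hoxb, Hoxc or Hoxd and a number. These were 39 of the 36109 genes with a listed transcript: 11 Hoxa genes on chromosome 6, 10 Hoxb genes on chromosome 11, 9 Hoxc genes on chromosome 15 and 9 Hoxd genes on chromosome 2. Paralogue numbers 1 to 3 are called anterior below, 4 to 8 central and 9 to 13 posterior.

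RNA was sequenced from aortic endothelial cells (ECs) and from whole hearts of mice with a deletion of Hmox2 in the whole body (Hmox2-/-) and of their wild-type littermates (Hmox2+/+), all kept in room air. Hmox2 encodes heme oxygenase-2, which degrades heme. There were 3 EC libraries from Hmox2+/+ mice (EC WT 1 to 3), 3 from Hmox2-/- mice (EC KO 1 to 3), 4 Hmox2+/+ hearts (heart WT 1 to 4) and 3 Hmox2-/- hearts (heart KO 1 to 3). The study states that the sequenced mice were young. Neither their exact age and sex nor the segment of the aorta is given in the labels. EC and heart RNA were extracted with different kits, and the series text calls ECs and hearts matched without saying which library goes with which. Libraries held 26067147 to 31619776 estimated counts, apart from heart WT 1 with 7268626.

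The libraries carried their genotype labels. Hmox2 stood at 47.4 to 57.6 CPM (counts scaled to a common library size, with TMM factors) in the 7 Hmox2+/+ libraries and at 9.40 to 11.3 in the 6 Hmox2-/- libraries. Ddx3y, a gene of the Y chromosome, had 27 and 25 counts in EC KO 2 and EC KO 3 and 463 to 2445 in each of the other 11 libraries. Within the ECs low Ddx3y occurred in KO alone, so sex and genotype cannot be fully told apart there. The heart KO libraries all had 1223 to 1702 counts of it, so by Ddx3y EC KO 2 and EC KO 3 match no heart KO library. The EC libraries were not endothelium alone. Summed TPM (transcript abundance per length, as kallisto gives it) of 12 endothelial markers was 989 to 1898 in EC WT and 2074 to 2297 in EC KO, with none of the 12 at 3 counts or fewer in any library, and beside it stood 6 adipocyte markers (4322 to 6895 over the 6 EC libraries), 5 brown adipocyte markers (1857 to 3165), 8 smooth muscle markers (607 to 3225), 8 fibroblast markers (1452 to 3939) and 7 macrophage markers (136 to 389). The 8 cardiomyocyte markers summed to 115 to 593 TPM in EC WT and to 7.15 to 11.9 in EC KO. Fewer cells of a type and less RNA per cell cannot be told apart in such bulk RNA.

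Promoter windows are shown for 3 of the genes that were higher in Hmox2-/- ECs, since they carry the comparison between genotypes below: Hoxb1, the first Hoxb gene, Hoxa9, a posterior gene, and Hoxd4, a central one. Each window is the 250 bases before the gene's RefSeq start (build GRCm38.p6), read along the gene's strand; capitals mark every match, on either strand, to the letters TGATNNAT (bound by Hox proteins together with Pbx), TGACAG (Meis), TTTATGG (Cdx) or AGGTCA (the core site of nuclear receptors, read as TGACCT on the other strand). The windows were chr11:96365508-96365757 on the plus strand for Hoxb1, chr6:52227371-52227620 on the minus strand for Hoxa9 and chr2:74721728-74721977 on the plus strand for Hoxd4.
Hoxb1: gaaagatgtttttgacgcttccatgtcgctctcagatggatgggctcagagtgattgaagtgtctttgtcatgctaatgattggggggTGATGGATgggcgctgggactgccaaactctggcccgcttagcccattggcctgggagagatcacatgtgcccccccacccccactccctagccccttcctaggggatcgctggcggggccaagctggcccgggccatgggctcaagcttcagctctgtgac
Hoxa9: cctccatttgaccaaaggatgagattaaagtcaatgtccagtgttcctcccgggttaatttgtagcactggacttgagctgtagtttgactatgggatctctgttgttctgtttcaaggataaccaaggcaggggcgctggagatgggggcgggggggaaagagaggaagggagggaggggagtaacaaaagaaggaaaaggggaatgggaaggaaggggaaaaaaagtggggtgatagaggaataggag
Hoxd4: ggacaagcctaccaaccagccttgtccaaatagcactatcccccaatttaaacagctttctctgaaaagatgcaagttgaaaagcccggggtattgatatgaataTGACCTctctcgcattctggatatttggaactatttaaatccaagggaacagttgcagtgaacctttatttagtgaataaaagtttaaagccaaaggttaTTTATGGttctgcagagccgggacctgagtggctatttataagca

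The Hoxb1 window held TGATNNAT at 162 to 155 bases before the start. These letters were found in 7.68% of all 32851 promoter windows of this length, and in 4 of the 24 windows of the 22 Hox genes that the reference table covers (Hoxa2, Hoxb1, Hoxb8 and Hoxd11). Hoxd4 held AGGTCA on the opposite strand at 145 to 140 bases, a motif in 14.0% of all windows, and TTTATGG at 45 to 39 bases, in 2.43% of them. TGACAG was in 15.9% of all windows, and none of the 4 strings was in the Hoxa9 window. A match describes letters only, and none was tested for binding.

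Hox RNA was abundant enough to measure in the EC libraries and close to absent in hearts. The summed level of the 39 genes was 83.7, 90.1 and 114 TPM in EC WT 1 to 3 and 163, 123 and 130 TPM in EC KO 1 to 3. In the hearts it was 1.87, 1.79, 1.62 and 1.64 TPM in heart WT 1 to 4 and 1.20, 1.44 and 1.56 TPM in heart KO 1 to 3. ECs and hearts did not overlap. The mean reached 1 TPM for 22 genes in EC WT, for 24 in EC KO and for 0 in either heart group. Counts of at most 3 in every library were found for 11 genes in EC WT, 9 in EC KO, 24 in heart WT and 25 in heart KO.

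**Figure D1:**
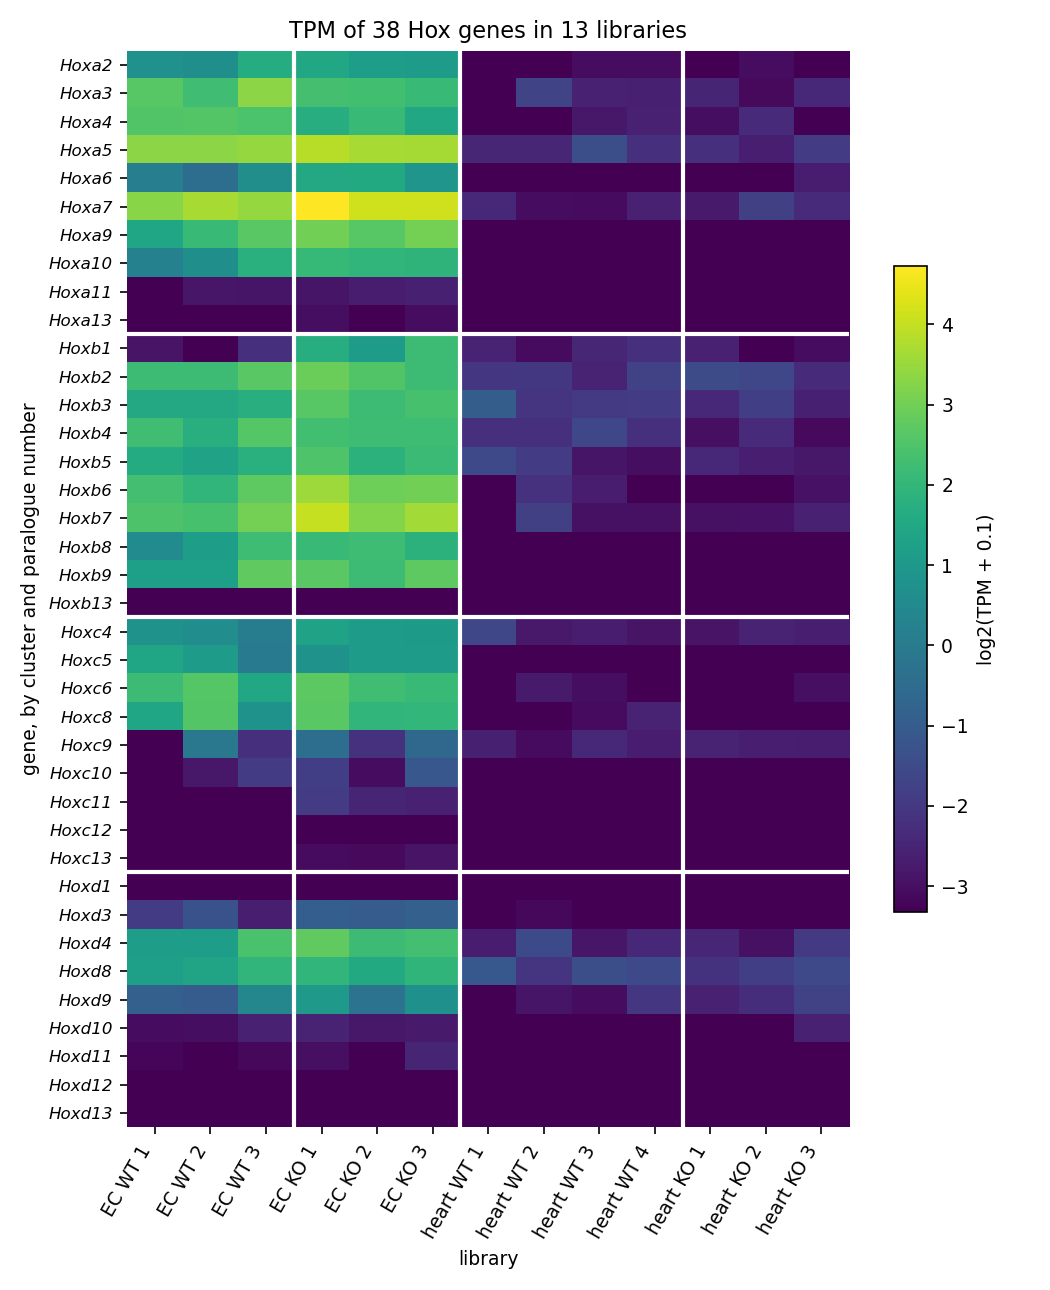
TPM of 38 Hox genes (rows, by cluster and paralogue number) in the 13 libraries (columns), drawn as log2(TPM + 0.1). In the 6 EC libraries most genes numbered 2 to 9 are filled, with Hoxc9 and Hoxd3 low, Hoxb1 is filled in the 3 EC KO libraries but not in EC WT, and no heart group reaches a mean of 1 TPM for any gene.

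The Hox profile of the EC libraries was central, with the Hoxa and Hoxb clusters ahead. Which cells in these mixed libraries carried it was not tested. Central genes made up 63.5% to 73.4% of the Hox TPM of the 3 EC WT libraries, anterior genes 16.4% to 20.8% and posterior genes 7.67% to 15.7%. The Hoxa cluster held 46.1% ± 0.581 (SD, n = 3), Hoxb 34.5% ± 5.12, Hoxc 12.4% ± 6.28 and Hoxd 7.01% ± 1.82. Summed over the clusters, paralogue group 7 stood highest at 17.4 ± 2.0 TPM (SD, n = 3), followed by group 5 at 15.0 ± 0.493 and group 4 at 14.8 ± 2.41, which lay within 1 SD of each other. Group 9 was at 9.11 ± 4.63 and group 10 at 2.08 ± 1.31 TPM. Nothing beyond group 10 exceeded 8 counts in any library: Hoxa11, Hoxa13, Hoxb13, Hoxc11, Hoxc12, Hoxc13, Hoxd11, Hoxd12 and Hoxd13 all stayed at or below it, and Hoxb13, Hoxc12, Hoxd1, Hoxd12 and Hoxd13 had no count in any of the 13 libraries. Counts of 0 allow up to 3 counts per library.

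Among single genes, Hoxa7 (11.1 ± 1.5 TPM, SD, n = 3) and Hoxa5 (10.2 ± 0.579) led in EC WT and did not differ beyond their spread. Hoxa3 (6.94 ± 2.74), Hoxb7 (6.27 ± 1.66), Hoxa4 (5.66 ± 0.288) and Hoxb6 (5.11 ± 1.39) came next, again within their spread. In EC KO the order began with Hoxa7 (20.5 ± 5.11), Hoxa5 (13.2 ± 1.12), Hoxb7 (12.5 ± 3.36), Hoxb6 (9.08 ± 2.20) and Hoxa9 (7.43 ± 1.16).

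The hearts kept a trace of a different mix. Hoxd8 (0.25 TPM in the mean) and Hoxb3 (0.22) were highest in heart WT, and Hoxb2 (0.19) and Hoxd8 (0.18) in heart KO. Counts of Hoxd8 were 3, 9, 15 and 19 in heart WT 1 to 4 and 10, 8 and 13 in heart KO 1 to 3. The Hoxd cluster held 21.5% to 28.6% of the Hox TPM in heart WT, against 5.93% to 9.11% in EC WT. The 2 ranges did not overlap, but the heart shares rest on few counts, and no test was made of them. Hoxa9, Hoxa10, Hoxb8, Hoxb9 and Hoxc5, with 55 counts or more in every EC library, had 0 counts in all 7 hearts.

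To see which Hox genes separate the tissues, ECs were compared with hearts within each genotype. In wild-type mice 24 of the 39 genes passed the filter on low counts and all 24 were called higher in ECs, where "called" means an adjusted p of at most 0.05 (edgeR quasi-likelihood test, Benjamini-Hochberg over all genes tested) and a fold change of at least 2. Of all genes tested, 22.6% were called higher in ECs. In Hmox2-/- mice 26 passed and all 26 were called higher, against 27% of all genes tested. Most of these genes passed the filter only through their EC counts, so they had to differ, and the counts of calls are given as a description. Tissue and extraction kit cannot be told apart in this comparison.

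The smallest differences between tissues in wild-type mice were those of Hoxd9 and Hoxd8, and the largest lower bounds those of Hoxb9 and Hoxa9. Hoxd9 was higher in EC WT than in heart WT by 2.53 on the log2 scale (SE 0.74, edgeR adjusted p = 0.0116), Hoxd8 by 2.69 (SE 0.32), Hoxb3 by 3.37 (SE 0.28) and Hoxc4 by 3.59 (SE 0.60). Hoxa7 differed by 7.02 (SE 0.32, edgeR adjusted p = 5.67e-08) and Hoxa5 by 5.11 (SE 0.36). Hoxd9, Hoxc4, Hoxa7 and Hoxa5 passed the filter only through their EC counts, so their p-values are given as a description. Against hearts without a single count, only bounds can be given. At 3 counts per heart library, Hoxb9 was at least 25.5-fold higher in EC WT, Hoxa9 at least 16.4-fold and Hoxb8 at least 15.0-fold, and in Hmox2-/- mice the bounds were 81.8-fold, 92.2-fold and 47.3-fold. The low depth of heart WT 1 lowers the wild-type bounds, so bounds cannot be compared between genotypes. Hoxc6, with 433 counts over EC WT and 2 over heart WT, gave a ratio of 133 (exact 95% interval 36.5 to 1099, counting error only).

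The size of the tissue difference depended on the scale. The ratio of EC WT to heart WT for summed Hox TPM was 55.5, and the same ratio in TMM-normalized CPM was 25.8. By cluster the TPM ratios were 135 for Hoxa, 60.5 for Hoxc, 42.0 for Hoxb and 16.6 for Hoxd, and those in CPM were 64.1, 27.7, 19.7 and 8.34, so the order of the clusters was kept.

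Between genotypes, summed Hox TPM was higher in each EC KO library than in any EC WT library, with Hoxb1 as the extreme and with posterior Hoxa genes, Hoxb7, Hoxd3 and Hoxd4 among those that rose. Of the 39 genes, 27 passed the filter, 24 of them with a positive and 3 with a negative fold change. At an adjusted p of at most 0.05, 10 rose and 0 fell, against 10% of all 15301 genes tested that rose and 8.06% that fell by the same rule. With the fold criterion added, 6 were called higher, against 5.39% of all genes, and 0 lower, against 3.89%. Among the 6, Hoxb1 and Hoxd3 passed the filter only through their EC KO counts. An unadjusted p under 0.05 was found for 12 genes in the positive and 2 in the negative direction, and for 35.3% of all genes in either. DESeq2 called 7 higher and 0 lower. The median log2 fold change over the 27 was 0.65, beside -0.02 over all genes tested.

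Hoxb1, which in the embryo marks the fourth segment of the hindbrain and is an early retinoic acid target, went from near absence to a clear signal. Its counts were 2, 0 and 6 in EC WT 1 to 3 and 153, 109 and 210 in EC KO 1 to 3, and 1, 1, 5 and 7 in heart WT 1 to 4 and 4, 0 and 1 in heart KO 1 to 3. Only the 3 EC KO libraries stood apart, and they did not overlap with any other. The rise was 5.96 on the log2 scale (SE 0.69, edgeR adjusted p = 0.00344), from 0.0494 ± 0.0588 to 3.21 ± 1.20 TPM (SD, n = 3 each). Hoxb1 passed the filter only through its EC KO counts, so its adjusted p is given as a description. All of these counts fell on the one coding transcript listed for it. The gene (chromosome 11, 96256578 to 96259082, plus strand, build GRCm39) shares 0.30% of its 31-base words with other listed genes and has no annotated antisense partner over its exons. EC KO 1, the one EC KO library with Ddx3y, carried 153 of these counts, and EC KO 2 and EC KO 3, low in it, 109 and 210. Whether what Ddx3y marks has a part in the rise was not tested. With EC KO 2 and EC KO 3 both left out the fold change was 5.88 (edgeR, 1 EC KO library). With any single EC library left out the edgeR adjusted p was 0.00487 to 0.0230.

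**Figure D2:**
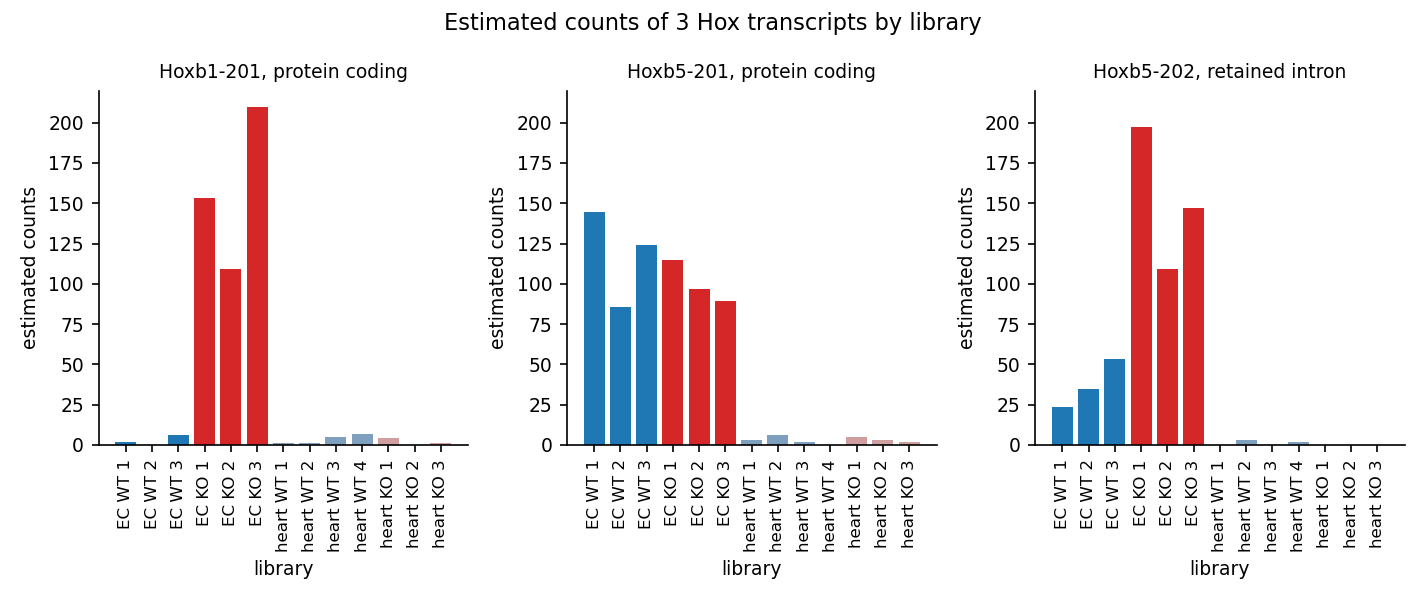
Estimated counts of 3 Hox transcripts in the 13 libraries (bars; blue EC WT, red EC KO, pale blue heart WT, pale red heart KO). The coding transcript of Hoxb1 has 109 to 210 counts in EC KO and at most 7 elsewhere; that of Hoxb5 overlaps between EC genotypes, while its retained-intron transcript does not.

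Of the 9 Hoxb genes tested 5 rose at the adjusted p, Hoxb1 and 4 others by smaller steps. Hoxb7, a central gene expressed in trunk mesoderm, had 170, 150 and 250 counts in EC WT 1 to 3 and 437, 286 and 319 in EC KO 1 to 3 and rose by 1.00 (SE 0.22, edgeR adjusted p = 0.0230). It lies on chromosome 11 at 96177449 to 96180988 (plus strand, GRCm39). Its hearts had 0, 6, 1 and 1 counts in WT and 1, 1 and 2 in KO. Hoxb6 (228, 154, 288 against 456, 332, 347 counts) rose by 0.89 (SE 0.23, edgeR adjusted p = 0.0385) and Hoxb3 (251, 189, 264 against 365, 330, 319 counts) by 0.65 (SE 0.18, edgeR adjusted p = 0.0427). For these 3 genes the groups did not overlap. How many of all genes show no such overlap was not counted, here or below. Hoxb6 and Hoxb3 stayed under the fold criterion, and their exons overlap antisense transcripts that are not among the listed ones: Hoxb3os covers 51.5% of the exon bases of Hoxb3 and Hoxb5os 30.8% of those of Hoxb6, so reads of the 2 strands cannot be told apart if strand was not used in the counting.

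Hoxb5, which acts in vascular and gut development, differed between its transcripts. Summed over its transcripts it had 168, 120 and 177 counts in EC WT and 312, 206 and 236 in EC KO and rose by 0.82 (SE 0.23, edgeR adjusted p = 0.0470). The coding transcript had 118 ± 30.2 counts in EC WT and 100 ± 13.1 in EC KO (SD, n = 3 each), while the retained-intron transcript went from 37.0 ± 15.1 to 151 ± 44.2. With coding transcripts alone the fold change was -0.10 (edgeR adjusted p = 0.831). The other 4 did not pass, and their genotypes overlapped. Hoxb2 had 208, 177 and 271 counts in EC WT and 289, 252 and 173 in EC KO (fold change 0.26, SE 0.24), and Hoxb4 had 347, 206 and 391 against 292, 311 and 272 (0.02, SE 0.24). Hoxb8 (90, 134, 204 against 228, 221, 149) and Hoxb9 (166, 140, 424 against 370, 294, 372) had EC WT 3 within the range of EC KO or above it. Their fold changes were 0.64 (SE 0.29) and 0.67 (SE 0.36).

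Of the 9 Hoxa genes tested 3 rose at the adjusted p and 0 fell. Hoxa9, a posterior gene known from blood stem cells and from the adult endothelium, had 104, 121 and 241 counts in EC WT and 416, 375 and 375 in EC KO and rose by 1.48 (SE 0.27, edgeR adjusted p = 0.0131). With counts scaled from TPM and transcript length its fold change was 0.86 (edgeR adjusted p = 0.0434), under the fold criterion, and that of Hoxa10 was 1.10 and did not pass the adjusted p. Hoxa10, its neighbour, had 55, 69 and 135 counts against 174, 173 and 155 and rose by 1.12 (SE 0.31, edgeR adjusted p = 0.0442). Hoxa7, the most abundant member, had 508, 532 and 513 counts against 1126, 850 and 724 and rose by 0.92 (SE 0.16, edgeR adjusted p = 0.0128), just under the fold criterion. In all 3 the EC groups did not overlap in counts, while in TPM those of Hoxa9 did. On chromosome 6 (minus strand, GRCm39) Hoxa7 lies at 52191471 to 52198834, Hoxa9 at 52200080 to 52208069 and Hoxa10 at 52208164 to 52217834, and antisense transcripts, not listed, overlap 20.3%, 9.35% and 19.0% of their exon bases. Hoxa6 (21, 12, 28 against 49, 56, 30 counts, fold change 1.28, SE 0.44, edgeR adjusted p = 0.0833) and Hoxa5 (517, 446, 509 against 624, 607, 521 counts, 0.38, SE 0.14, edgeR adjusted p = 0.0999) did not pass.

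The lower-numbered Hoxa genes had fold changes of either sign, and none passed. Hoxa4 had 251, 220 and 208 counts against 112, 169 and 95 (-0.73, SE 0.28, edgeR adjusted p = 0.112) and Hoxa3 had 420, 271 and 511 against 271, 270 and 216 (-0.53, SE 0.24, edgeR adjusted p = 0.153). The EC groups of Hoxa4 did not overlap in counts or TPM, with EC WT higher, but they did in CPM. Hoxa2 had 79, 63 and 134 counts against 108, 98 and 81, with overlapping groups (0.20, SE 0.31). Over the 9 Hoxa genes tested, Spearman's rho between paralogue number and fold change was 0.85, and over the 9 Hoxb genes it was 0.02. The points of each rho come from the same 6 libraries and, as neighbours in 1 cluster, are not independent, and no test of position was made.

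**Figure D3:**
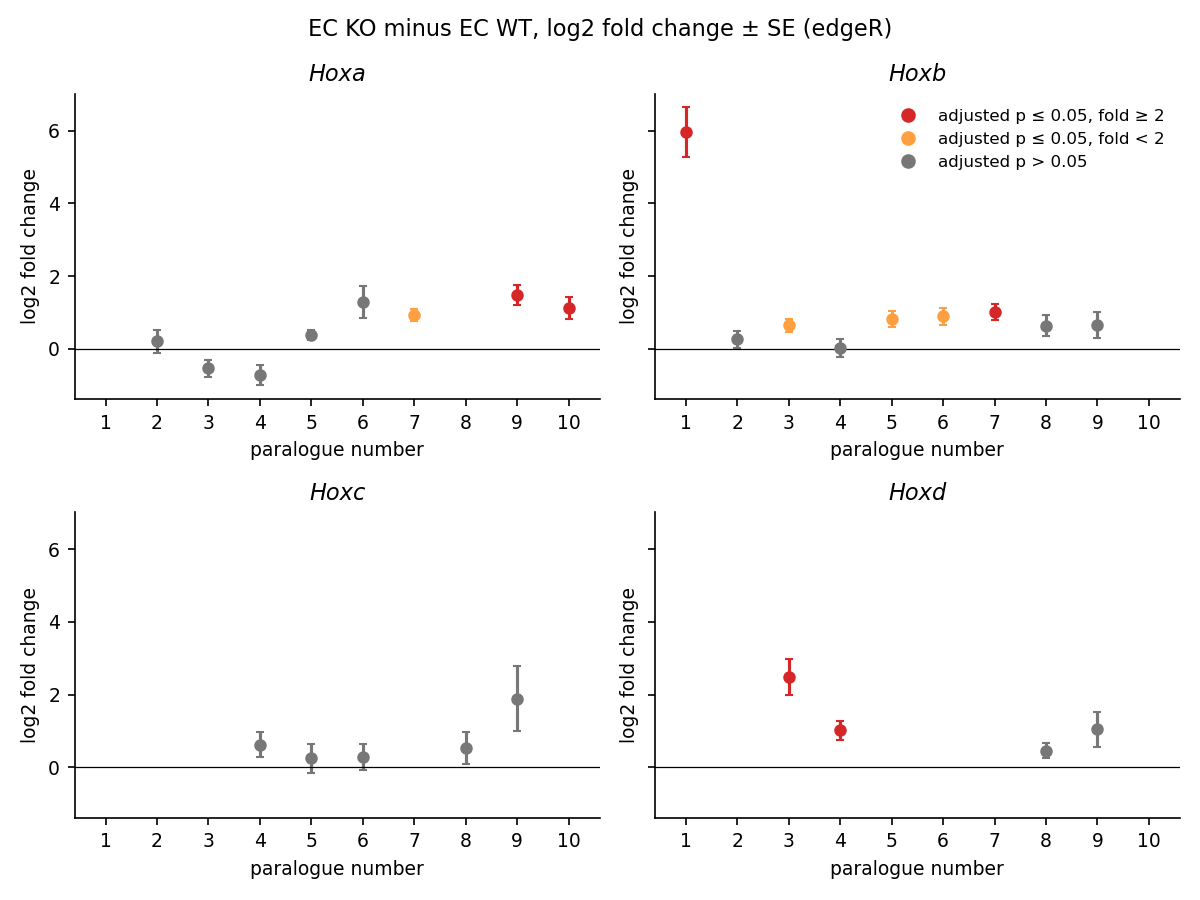
Log2 fold change of EC KO minus EC WT (points, with SE as bars; edgeR) against paralogue number for 26 of the Hox genes tested, in one panel per cluster. Red points pass an adjusted p of 0.05 and a fold of 2, orange points the adjusted p alone; Hoxa runs from -0.73 at Hoxa4 to 1.48 at Hoxa9, and Hoxb1 stands at 5.96.

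In the Hoxd cluster the 2 genes called were neighbours with shared sequence. Hoxd4 had 124, 98 and 216 counts in EC WT and 313, 239 and 248 in EC KO and rose by 1.01 (SE 0.27, edgeR adjusted p = 0.0416). Hoxd3 had 3, 8 and 4 counts against 28, 20 and 30 and rose by 2.48 (SE 0.50, edgeR adjusted p = 0.0184), which rests on few counts. It passed the filter only through EC KO, so its adjusted p is given as a description. With counts scaled from TPM and transcript length the fold change of Hoxd3 was 1.30 (edgeR adjusted p = 0.170) and that of Hoxd4 0.85 (edgeR adjusted p = 0.117), and neither was called. Hoxd3 shared 61.1% and Hoxd4 48.8% of their 31-base words with other listed genes, mainly each other and the read-through gene Gm28230, so the split between them is uncertain. Their gene models overlap on chromosome 2 (plus strand, GRCm39), at 74542271 to 74578786 and 74542273 to 74559523. Summed over the 3, counts were 152, 177 and 278 in EC WT and 414, 343 and 331 in EC KO, and the groups did not overlap. Hoxd8 (148, 131, 208 against 225, 176, 209 counts) and Hoxd9 (27, 21, 66 against 96, 41, 76) had fold changes of 0.46 (SE 0.21) and 1.05 (SE 0.48) that did not pass. Hoxd10 had 1 to 3 counts and Hoxd11 0 to 6 in each EC library.

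No Hoxc gene passed in the comparison of EC genotypes. EC WT 3 had less of the cluster than the other EC WT libraries, with 48, 66, 80 and 77 counts of Hoxc4, Hoxc5, Hoxc6 and Hoxc8, against 96, 164, 176 and 140 in EC WT 1 and 70, 141, 177 and 268 in EC WT 2. EC KO 1 to 3 had 111, 106 and 91 counts of Hoxc4, 112, 158 and 141 of Hoxc5, 196, 166 and 131 of Hoxc6 and 284, 193 and 171 of Hoxc8. The fold changes were 0.63 (SE 0.34), 0.25 (SE 0.39), 0.29 (SE 0.37) and 0.53 (SE 0.44). Hoxc9 had 0, 11 and 7 counts against 23, 8 and 30, with a fold change of 1.89 (SE 0.90, edgeR adjusted p = 0.177) that did not pass. Hoxc10 had 0, 2 and 8 against 8, 1 and 15, and Hoxc11 0 in each EC WT library against 8, 4 and 3, and neither passed the filter.

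**Figure D4:**
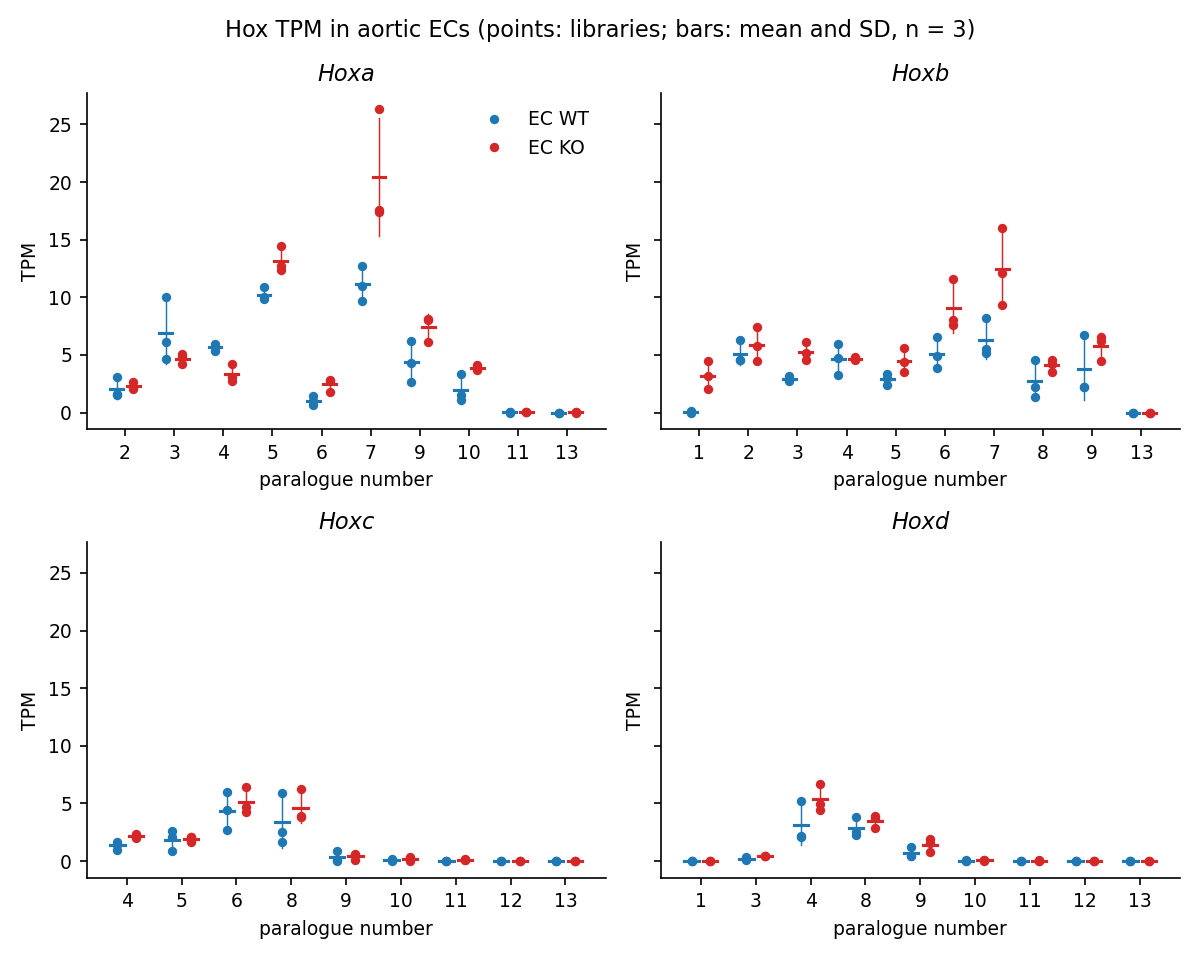
TPM of 38 Hox genes in the 6 EC libraries by cluster and paralogue number (points: libraries; horizontal bars: mean; vertical bars: SD, n = 3). Hoxa7, Hoxb7 and Hoxb1 lie higher in all 3 EC KO libraries than in any EC WT library and Hoxa4 lies lower, whereas Hoxb4 and most Hoxc genes overlap.

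The number of calls depended on single libraries. EC WT 3 was the EC WT library nearest to EC KO at the posterior end, with a CPM of Hoxb9 2.43 times, of Hoxd9 2.41 times and of Hoxa9 1.89 times the mean of EC WT 1 and EC WT 2. Without it 8 genes were called. Leaving out EC WT 1, EC KO 1 or EC KO 3, one at a time, left 2 calls, and leaving out EC WT 2 or EC KO 2 left 3. Hoxb1 was called in all 6 of these fits and Hoxa9 in 5, but Hoxb7 and Hoxd3 in 2 each and Hoxa10 and Hoxd4 in 1 each. With counts scaled from TPM and transcript length, 2 genes were called (Hoxb1 and Hoxb7), and with both EC KO libraries low in Ddx3y left out 0 were called by edgeR, which then had 1 EC KO library.

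Markers of other cell types moved along with the genotype in the EC libraries. Of the 8 cardiomyocyte markers 7 were lower in EC KO at an adjusted p of at most 0.05, as were 6 of 6 skeletal muscle markers tested, 4 of 5 mesothelial markers (10.5 to 73.9 TPM summed in EC WT, 4.92 to 6.19 in EC KO) and 3 of 8 smooth muscle markers. Of 12 endothelial markers 5 were higher and 1 lower, of 8 fibroblast markers 3 were higher and 0 lower, and of 7 macrophage markers 3 were higher and 0 lower. By the same rule 10% of all genes were higher and 8.06% lower. Among 6 adipocyte markers 1 was lower, among 5 brown adipocyte markers 0 changed and among 4 Schwann cell and neuron markers tested 1 was higher. Summed fibroblast markers were 1452 to 2798 TPM in EC WT and 2894 to 3939 in EC KO. Their part in the Hox differences was not tested.

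In the hearts, 3 Hox genes had enough counts for a test between genotypes and 0 were called by edgeR or by DESeq2, with 0 at an unadjusted p under 0.05, which 44.8% of all genes reached. By the full rule 2.66% of all genes tested were called higher and 4.05% lower. Hoxb2 had 3, 7, 5 and 13 counts in heart WT and 16, 11 and 6 in heart KO (0.06, SE 0.52). Hoxb3 had 4, 11, 15 and 11 counts against 7, 16 and 5 (-0.72, SE 0.50), and Hoxd8 gave -0.71 (SE 0.43). The groups overlapped for all 3, and at these counts the SEs on the log2 scale were 0.43 to 0.52. Hoxb4, at 2, 8, 17 and 9 counts against 2, 7 and 1, did not pass the filter. Summed Hox TPM was 1.62 to 1.87 in heart WT and 1.20 to 1.56 in heart KO, without overlap. These sums rest on 23 to 107 counts per library in heart WT and 73 to 81 in heart KO, and they were not tested.

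Whether the genotype difference itself differed between ECs and hearts was tested with the interaction term over all 13 libraries. Of 27 genes that passed the filter, 5 had 0 counts in all hearts, so that no interaction could be estimated for them. Of the other 22, 4 had a difference more positive in ECs, against 7.33% of all genes, and 0 a more negative one, against 8.08%. All 4 were Hoxb genes. The estimates were 7.48 for Hoxb1 (SE 1.21, edgeR adjusted p = 0.000886), 3.79 for Hoxb6 (edgeR adjusted p = 0.0321), 1.95 for Hoxb4 (SE 0.64, edgeR adjusted p = 0.0355) and 1.33 for Hoxb3 (SE 0.45, edgeR adjusted p = 0.0407). For Hoxb4 the EC difference was 0.02, and for Hoxb6 the hearts had 0, 6, 3, 0, 0, 0 and 1 counts. Hoxb1, which passed the filter only through its EC KO counts, was called with each of the 13 libraries left out in turn. Of these 13 fits Hoxb6 was called in 9, Hoxb4 in 7 and Hoxb3 in 4. In all, 2 genes were called without EC KO 2, EC KO 3, EC WT 2 or heart WT 3, and 1 without heart KO 1.

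The proteins that work with Hox factors or set their expression were examined as lists. TALE homeodomain cofactors (Pbx, Meis and Pknox), which bind DNA together with Hox proteins, were present in both tissues. In ECs 2 of the 9 were higher in KO at an adjusted p of at most 0.05, Pknox2 by 0.89 (SE 0.23) and Meis2 by 0.66 (SE 0.13), and 0 were lower, against 10% and 8.06% of all genes. The median of the 9 was 0.33. Between wild-type tissues, where 22.6% of all genes were called higher and 17% lower in ECs, Pbx3 and Meis1 were called lower (-1.67 and -1.52) and Pbx4 higher (2.39), and 1 of 8 cofactors tested in hearts was lower in KO at the adjusted p alone, by which 17.2% of all genes were higher and 16.2% lower. For the interaction Pknox2 was called (1.01, SE 0.27), as were 7.33% of all genes in that direction.

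Polycomb group proteins, which keep Hox genes silent, and trithorax proteins with the H3K27 demethylases, which oppose them, were counted in the same way. Of 19 Polycomb genes 2 were higher and 2 lower in EC KO at the adjusted p, against 10% and 8.06% of all genes, with a median of 0.01, and 0 were called higher and 1 lower, against 5.39% and 3.89%. Of 10 trithorax and demethylase genes 0 were higher and 1 lower, with a median of -0.17, and 0 were called. In hearts 7 of 19 Polycomb genes were lower and 1 higher in KO (median -0.22), and 3 of 10 trithorax and demethylase genes lower and 1 higher (median -0.20), against 16.2% lower and 17.2% higher of all genes, with 0 called in either. Between wild-type tissues Pcgf2 (1.5), Men1 (1.05) and Dpy30 (1.01) were called higher in ECs and Bmi1 (-1.49) and Rbbp7 (-1.03) lower, among others. Dpy30 was the one gene of the 2 lists called for the interaction (-1.19), as were 8.08% of all genes in that direction.

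Retinoic acid, which induces anterior Hox genes in the embryo, is made by Aldh1a enzymes and acts through RAR and RXR receptors. Of 14 genes of this pathway tested in ECs, 1 was higher and 3 lower in KO at an adjusted p of at most 0.05, against 10% and 8.06% of all genes, with a median of 0.00. Aldh1a2, which is strong in mesothelium, was called lower (-2.18, SE 0.49, edgeR adjusted p = 0.0256), from 5.87 ± 3.91 to 1.24 ± 0.704 TPM (SD, n = 3 each). Of 14 tested in hearts, 5 were higher and 1 lower (median 0.15), against 17.2% and 16.2% of all genes, and 2 were called higher, against 2.66%, among them Stra6 (1.90). In wild-type mice 4 of 13 tested were called higher in ECs than in hearts, among them Aldh1a3 (3.92) and Rarg (1.16), and 2 lower, among them Rxrg (-2.25), against 22.6% and 17% of all genes. For the interaction 3 of 14 were called with a more negative difference in ECs, against 8.08% of all genes, among them Aldh1a2 (-3.08) and Rarb (-1.23). None of the 6 ParaHox genes, which include the Cdx factors that activate posterior Hox genes in the embryo, passed the filter in any comparison.

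Other factors of regional identity were described in the same way. Of 6 cardiac transcription factors tested in ECs, 1 was higher and 4 lower in KO, and all 5 were called, against 5.39% of all genes called higher and 3.89% lower: Tbx20 (-3.07), Gata4 (-2.60), Hand2 (-2.57) and Tbx5 (-2.14) lower, and Isl1 higher (1.19, SE 0.18), from 7.01 ± 1.54 to 13.1 ± 1.92 TPM (SD, n = 3 each). The cardiomyocyte markers were lower in the same libraries. In hearts 2 of 6 were lower in KO, against 16.2% of all genes, with 0 called. Between wild-type tissues Nkx2-5 (-7.80), Gata4 (-6.27) and Tbx20 (-5.54) were lower in ECs and Isl1 higher (7.95), and 5 of 7 had a more negative interaction term that was called, against 8.08% of all genes. Of 14 other homeobox and T-box factors tested in ECs, 3 were higher and 3 lower in KO, against 10% and 8.06% of all genes, and 1 was called higher and 3 lower, against 5.39% and 3.89%. Lhx9 was called higher (4.87, SE 0.78, edgeR adjusted p = 0.00892), from 0.0133 ± 0.0116 to 0.365 ± 0.166 TPM, and Shox2 (-2.06), Meox1 (-1.30) and Tbx2 (-1.26) lower. With EC WT this near the floor, the adjusted p of Lhx9 and its interaction term below are given as a description. Between wild-type tissues 4 of 13 were called higher in ECs, against 22.6% of all genes, among them Msx1 (2.53) and Shox2 (2.46), and Tbx3 lower (-2.20). In hearts Six2 (-2.19) and Nr2f1 (-1.10), 2 of 12, were called lower, against 4.05% of all genes, and in the interaction Lhx9 (7.12), Nr2f1 (2.20), Six2 (2.16) and Meox1 (-1.93) differed most. In Hmox2-/- mice, calls higher and lower in ECs than in hearts numbered 1 and 2 among the TALE cofactors, 3 and 1 among Polycomb genes, 0 and 0 among trithorax and demethylase genes, 3 and 3 in the retinoic acid pathway, 1 and 5 among cardiac factors and 6 and 3 among the other regional factors, against 27% and 20.6% of all genes.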

How the data were processed

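Each library was sequenced from oligo-dT selected, directional RNA. The authors quantified reads with kallisto 0.44.0, and the deposited files hold an effective length, an estimated count and a TPM, deposited as kallisto wrote them, for 118489 transcripts. The study's methods name a GRCm39 index, the submitters' processing notes mm10 and GRCh38.p13; the files hold no coordinates. No strand setting is given in the sources used here, and most antisense Hox transcripts were not listed. Matching by stable ID to GENCODE M39 (GRCm39) covered 97.2% of transcripts; unmatched ones held 0.755% to 1.01% of counts and were left out.

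Transcripts of a gene were added up, the sums rounded to whole counts and filtered (filterByExpr, minimum count 10). Libraries were grouped by title, normalized by TMM and tested with edgeR 4.0.16 (quasi-likelihood, R 4.3.3) in 5 comparisons, with Benjamini-Hochberg adjustment over all genes. Calls needed an adjusted p no higher than 0.05 together with a fold change of 2 or more in either direction. The SE of a log2 fold change is its size over the square root of the F statistic. The study gives n = 3 per strain for the sequenced hearts, while 4 heart WT libraries were listed. The labels name no animal for a library, so p-values measure the spread between libraries. The closest 2 libraries of a group, heart WT 1 and heart WT 2, still differed beyond sampling noise. Alternatives were DESeq2 1.42.0, other normalizations, filters, count definitions, a replicate block and leaving out each library. On simulated data with 200 genes changed by 2 on the log2 scale, edgeR called 184 of 200 between EC genotypes among 15025 genes. Intervals and bounds cover counting error only. Levels between genes are compared as TPM.

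Named genes followed 1 rule: the Hox genes, Hmox2, and up to 4 called genes of the largest fold change per list and comparison, without names for the lists between tissues of Hmox2-/- mice. Meis2, Pknox2, Isl1 in ECs and Ddx3y were added after their values were seen. A few genes are counted but not reported here by name or drawn. The members, the lists and the markers were chosen with earlier results of these data known. Promoters are from RefSeq (GRCm38.p6), which covered 22 of the 39 genes; gene coordinates are GRCm39.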

Additional observations from a re-analysis of the deposited data

Results flagged for a closer look

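The interaction between tissue and genotype passed the test for 4 genes, with estimates on the log2 scale of 7.48 for Hoxb1, 3.79 for Hoxb6, 1.95 for Hoxb4 and 1.33 for Hoxb3, each more positive in ECs. Of all genes tested, 7.33% were called in that direction.

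In heart WT, the group of 4, 17 measures were examined for a single library far from the others. In 3 of them the gap to the nearest library, as a share of the group's range, was above Dixon's critical value at the 95% level: 0.854 for Hoxa5 (0.0807, 0.0833, 0.280 and 0.110 TPM in heart WT 1 to 4), 0.884 for Hoxb3 (0.421, 0.129, 0.158 and 0.163 TPM) and 0.967 for Hoxb4 (0.115, 0.119, 0.226 and 0.117 TPM). The high library was heart WT 3 for Hoxa5 and Hoxb4, and heart WT 1, with 4 counts and the lowest depth, for Hoxb3. Chance flags about 1 in 20 such groups.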

How the results depend on the processing

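Between EC genotypes 6 Hox genes were called higher, 10 with the adjusted p alone, 2 with counts scaled from TPM and 2 to 8 with each library left out in turn. With both EC KO libraries low in Ddx3y left out, an alternative chosen after seeing the data, 0 were called, and 1 in the interaction. The other EC alternatives gave 4 to 7, and 0 were called lower in any. In hearts 0 were called, except for Hoxb4, called lower with all 13 libraries in one fit (1 gene). The tissue comparisons stayed at 23 to 25 calls in Hmox2+/+ and 25 to 29 in Hmox2-/- mice, and the interaction at 1 to 5 with each library left out and otherwise 3 to 6.

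Fold changes that turned their sign were those of genes not called. Between EC genotypes, with each library left out in turn, Hoxa2 ran from -0.0071 (without EC WT 2) to 0.48, Hoxb4 from -0.21 (without EC WT 2) to 0.18, with -0.057 without EC KO 2, Hoxc5 from -0.090 to 0.59 and Hoxc6 from -0.042 to 0.53, the last 2 lowest without EC WT 3. Hoxb4 was at -0.015 in the fit of all 13 libraries, and without both libraries low in Ddx3y it was at -0.029 and Hoxc5 at -0.096. Hoxb5 was at -0.099 with coding transcripts alone. In hearts Hoxb2 ran from -0.29 (without heart KO 1) to 0.38, with -0.075 without heart WT 2 and -0.16 without heart WT 3. The causes were not tested. In CPM the ratio of EC WT to heart WT was 25.8 for all Hox genes, 64.1 for Hoxa, 19.7 for Hoxb and 8.34 for Hoxd, and heart KO over heart WT was 0.646, against 0.811 in TPM.

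Whether replicate numbers pair the libraries cannot be settled from groups this small. Deviations of same-numbered libraries correlated at 0.06 to 0.21 between EC genotypes, -0.06 to 0.08 between heart genotypes, 0.01 to 0.10 between wild-type tissues and -0.04 to 0.20 between Hmox2-/- tissues. Those of differently numbered libraries correlated at -0.23 to 0.17 between EC genotypes and -0.13 to 0.06 between heart genotypes. Between wild-type tissues they ran from -0.12 to 0.06, and between Hmox2-/- tissues from -0.19 to 0.02. With the replicate number as a block, 6 Hox genes were called between EC genotypes and 3 in the interaction. Depth limits the hearts, above all heart WT 1.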
